A study of Mus musculus with 30 samples.

Results

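Among 30 mouse mammary tumours, 13 held almost no transcript of Cd300ld4, a receptor gene of the CD300 cluster on chromosome 11, and 17 held it at a measurable level. A tumour was put in the low class when its Cd300ld4 value was below 1 RPKM (reads divided by the transcript's length and the library's total) and in the high class when it was at least 1 RPKM. All 30 tumours of the series fall in one class or the other. The classes were thus chosen by the measured expression of Cd300ld4, so its own difference is a description and carries no test. Every other gene was then compared between the classes, with the genes of chromosome 11 (cis) counted apart from those of other chromosomes (trans).

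The tumours came from backcross mice. PyMT, the middle T antigen of polyoma virus, is an oncogene used to induce mammary tumours. MOLF, a wild-derived strain, was crossed with PyMT mice and the offspring were crossed to FVB, so each animal carries FVB segments throughout and MOLF segments in a pattern of its own. Low and high tumours share this cross, the oncogene and the tissue, and 1 library of poly-A selected RNA was made per animal. The labels give no age, treatment or genotype, so it is not known which animals carry a MOLF segment at chromosome 11. The luminal epithelial marker Krt8 lay between 284 and 794 RPKM and Epcam between 313 and 711 RPKM over all tumours, so epithelial transcripts were present in each, as labelled.

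CD300 proteins are single-pass receptors with an immunoglobulin-like domain in the part outside the cell. Most are made by myeloid cells, such as macrophages, neutrophils and mast cells, and several bind lipids that dying cells expose. Some carry inhibitory motifs in their tail, while others have a short tail and pass an activating signal through adaptor proteins. In the mouse the family lies as a tight cluster on chromosome 11, in which near-identical copies stand side by side.

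Those copies decide what the Cd300ld4 value measures. In the transcript models (GENCODE vM21, build GRCm38), Cd300ld4 and Cd300ld5 differ at 1 of 852 bases, and Cd300ld4 and Cd300ld3 at 10 of 852 bases (98.8% identity), of which 4 lie from the start codon on. The first coding exon is shown because it holds 3 of these differences. All 3 genes lie on the minus strand, at chr11:115026859-115026898 for Cd300ld4, chr11:115037616-115037655 for Cd300ld5 and chr11:115048256-115048295 for Cd300ld3. Capitals mark the bases at which Cd300ld3 differs from the other copies.
Cd300ld4: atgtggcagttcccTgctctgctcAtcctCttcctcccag
Cd300ld5: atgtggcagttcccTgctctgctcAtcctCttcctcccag
Cd300ld3: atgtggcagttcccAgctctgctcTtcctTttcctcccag

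The single base that separates Cd300ld4 from Cd300ld5 lies in a later coding exon, in a stretch of short repeats. That stretch is at chr11:115022751-115022810 for Cd300ld4, chr11:115033509-115033568 for Cd300ld5 and chr11:115044154-115044213 for Cd300ld3. The capital marks that base.
Cd300ld4: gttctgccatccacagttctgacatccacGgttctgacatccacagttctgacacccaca
Cd300ld5: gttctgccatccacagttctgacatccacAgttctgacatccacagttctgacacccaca
Cd300ld3: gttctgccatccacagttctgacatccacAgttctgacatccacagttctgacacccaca

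Of all 36-base windows of the Cd300ld4 transcript, 95.6% occur unchanged in Cd300ld5, 79.1% in Cd300ld3 and 38.6% in Cd300ld2, a copy with no row of its own in the gene table. For 75-base windows the shares were 90.4%, 71.9% and 24%. The read length is not given in the sources used here. In the deposited table the rows of Cd300ld4 and Cd300ld5 held the same value in each of the 30 tumours, so the 2 genes cannot be told apart in these data. The value called Cd300ld4 below is therefore a value for both, and Cd300ld3 is not an independent measure of it. These letters are those of the reference genome, not of FVB or MOLF.

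Cd300ld4 ranged from 0 to 0.304 RPKM in the low tumours (median 0.121, 0.147 ± 0.0965, SD, n = 13) and from 1.77 to 6.06 RPKM in the high tumours (median 2.58, 3.0 ± 1.18, SD, n = 17). The classes were separated by an empty range: the highest low tumour was that of animal 4378 at 0.304 RPKM and the lowest high tumour that of animal 4030 at 1.77 RPKM. Any threshold within that range gives the same classes. At the depth recovered for each library, these values correspond to about 0 to 34.8 reads in low tumours and 95.4 to 897 reads in high tumours. The only tumour listed at 0 was that of animal 4142, in which 3 reads would have given 0.0581 RPKM. Cd300ld4 was also listed a second time, in a row left out of the tests. By that row low tumours ranged from 0.019 (animal 4142) to 0.594 RPKM (animal 3654). High tumours ranged from 1.647 (animal 4262) to 6.385 RPKM there, and 0 tumours changed class. The edges and the value of 0 above thus hold for the first row only.

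The 30 libraries fell into 2 depth classes, 16 shallow ones of 42.5 to 61.9 M reads and 14 deep ones of 117 to 196 M reads, and these were not spread evenly. Low tumours had 5 shallow and 8 deep libraries, and high tumours had 11 shallow and 6 deep ones. Insert size, the mean length of the sequenced fragments in the labels, had a median of 238 bases in low and 255 bases in high tumours. Low values of Cd300ld4 occurred in both depth classes, at 0 to 0.304 RPKM in shallow and 0.027 to 0.279 RPKM in deep libraries. High values did too, at 2.03 to 5.08 RPKM in shallow and 1.77 to 6.06 RPKM in deep libraries. The main results below are therefore also given within each depth class.

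Few genes separated the classes. Of 13609 genes tested, 3 (0.022%) passed an adjusted p of 0.05 (limma on log2(RPKM + 1), two-sided, Benjamini-Hochberg over all tested genes), and all 3 lie on chromosome 11, where 1195 genes were tested (0.251%). Those lower in low tumours were Cd300ld3 and C1qtnf1 (0.0147% of all tested genes, 0.167% of chromosome 11), and the one higher was Wfdc18 (0.00735% and 0.0837%). Cd300ld3 is a near-identical copy of Cd300ld4 and entered the test only through the high class, so its call was fixed by the classes. Without it among the tested genes only 1 gene passed on chromosome 11, C1qtnf1, and Wfdc18 did not (limma adjusted p = 0.0543). Not 1 of 12408 genes on other chromosomes passed in limma, against 949 (7.65%) with an unadjusted p below 0.05. In simulated data of this size, 34% of genes with a log2 difference of 0.3 were recovered, 82% at 0.6, 88% at 1 and 100% at 1.5. The simulation had independent noise and far more changed genes than passed here. The adjusted threshold is looser when more genes pass, so these shares do not carry over to the real data. There the chromosome 11 gene Fads6, with a difference of -0.80, did not pass (limma adjusted p = 0.069). Differences near 0.3 were mostly not recovered even in the simulation.

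**Figure D1:**
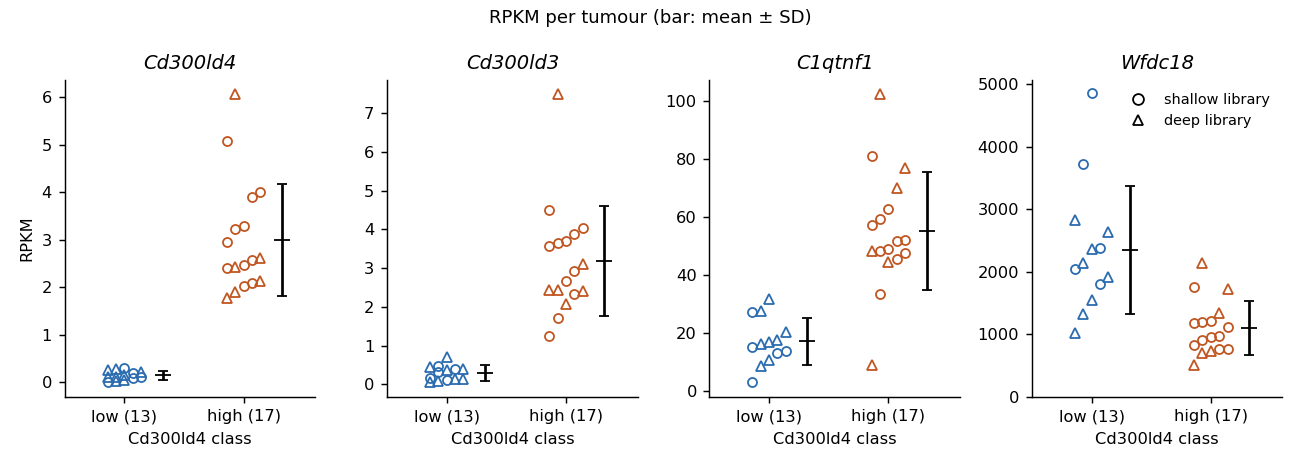
RPKM of Cd300ld4, Cd300ld3, C1qtnf1 and Wfdc18 in each tumour, for the 13 low and 17 high tumours on linear axes, with circles for shallow and triangles for deep libraries and a bar for the mean ± SD. Cd300ld4, which made the classes, and Cd300ld3 leave a gap between them, while 1 high tumour lies among the low ones for C1qtnf1 and Wfdc18 overlaps.

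Cd300ld3, the next tested gene after Cd300ld4, ranged from 0.054 to 0.715 RPKM in low tumours (median 0.334) and from 1.25 to 7.49 RPKM in high tumours (median 2.92). No low tumour reached the lowest high one. Its mean was 0.298 RPKM in low and 3.19 RPKM in high tumours, so it entered the test only through the high class. On the log2(RPKM + 1) scale the difference, low minus high, was -1.64 ± 0.13 (SE, limma adjusted p = 1.38e-09). Since most of its sequence is shared with Cd300ld4, this is close to the same measurement taken again, and it is given as a description.

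C1qtnf1 encodes a secreted protein of the C1q and tumour necrosis factor related family, also known as CTRP1. It lies 86 tested genes after Cd300ld4 on chromosome 11 and shares no 36-base window with it. In low tumours it ranged from 3.05 to 31.7 RPKM (median 16.2, 17.2 ± 8.05, SD, n = 13), and in high tumours from 9.01 to 102 RPKM (median 51.7, 55.3 ± 20.4, SD, n = 17). All but 1 of the high tumours lay above every low tumour, the exception being that of animal 4016 at 9.01 RPKM. C1qtnf1 was 3.18-fold higher in high tumours on the log2(RPKM + 1) scale, with a difference, low minus high, of -1.67 ± 0.26 (SE, limma adjusted p = 0.0024).

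The call of C1qtnf1 held when each of the 30 tumours was left out in turn (limma adjusted p from 8.25e-06 to 0.00769) and without Cd300ld3 among the tested genes (adjusted p = 0.00481). Within the shallow libraries the difference was -2.01 (adjusted p = 0.0217). Within the deep libraries it was -1.39 and did not pass (adjusted p = 0.715), with low tumours at 8.73 to 31.7 RPKM and high tumours at 44.5 to 102 RPKM beside that of animal 4016. With the level of macrophage genes as a covariate the difference was -1.54 (adjusted p = 0.156). With classes divided at 2 RPKM of Cd300ld4, which moves animals 4030 and 4459 to the low class, it was -1.34 (adjusted p = 0.231).

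Wfdc18 encodes a small secreted protein with a WAP-type four-disulfide core, known from mammary epithelium. It lies 378 tested genes before Cd300ld4. In low tumours it ranged from 1020 to 4854 RPKM (median 2133) and in high tumours from 501 to 2137 RPKM (median 976). All 13 low tumours lay above the median of the high ones, but the classes overlapped, with 6 low tumours above every high one. Its difference, low minus high, was 1.07 ± 0.20 (SE, limma adjusted p = 0.0362), or 2.10-fold.

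This call rests on the choice of tumours and genes tested. Leaving out 1 tumour at a time ended it in 13 of 30 cases (adjusted p from 0.00619 to 0.0909), namely animals 3273, 4036, 4042, 4139, 4144, 4150, 4262, 4459, 4547, 4638, 3654, 3939 and 4020. It also ended when Cd300ld3 was taken out of the tested genes (adjusted p = 0.0543), with insert size as a covariate (0.109), with no filter on low genes (0.105), with quantile normalization (0.136), with classes divided at 2 RPKM (0.178), with the macrophage level as a covariate (0.611) and in deep libraries alone (0.832). The difference itself lay between 0.83 and 1.07 under these settings, and between 0.97 and 1.16 with 1 tumour left out.

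The genes next to Cd300ld4 were read in the order of a RefSeq gene table, the 10 tested genes on each side. Of these 20, 8 had an unadjusted p below 0.05, against 17.4% of all tested chromosome 11 genes and 8.5% of all tested genes, and 1 (Cd300ld3) passed the adjusted threshold. The other 12 had differences from -0.17 to 0.11. On the side before Cd300ld4, the 3 nearest genes belong to its own family, Cd300c2, Cd300ld and Cd300a, and the next is the orphan receptor gene Gprc5c. Gprc5c had a median of 11 RPKM in low and 13.3 RPKM in high tumours (difference -0.31 ± 0.11, adjusted p = 0.508).

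On that side, the ribosomal protein gene Rpl38 had medians of 801 RPKM in low and 611 RPKM in high tumours (0.35 ± 0.17, adjusted p = 0.577), and D11Wsu47e had 6.46 and 5.73 RPKM (0.16 ± 0.08, adjusted p = 0.571). On the other side, Fads6, of the fatty acid desaturase family, stood 8 tested genes away. It ranged from 1.11 to 7.67 RPKM in low tumours (median 3.49) and from 3.46 to 10.3 RPKM in high tumours (median 7.71), so that all 13 low tumours lay below the high median. The difference was -0.80 ± 0.16 (limma adjusted p = 0.069) and passed when animal 4038, 4357, 4438, 4488, 4516 or 4030 was left out (adjusted p of 0.0115 to 0.047). An unbroken run of 8 tested genes around Cd300ld4, from Ttyh2 (5 before) to Cd300lf (3 after), had negative differences, from -0.06 to -1.64. The ends of this run were set by the sign itself, and Slc9a3r1 (4 after) is nearer than Ttyh2. Of these 8 genes, 5 belong to the CD300 family. Beyond them the sign was mixed, with Rpl38 the first positive gene on one side and Slc9a3r1 (0.08) on the other.

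**Figure D2:**
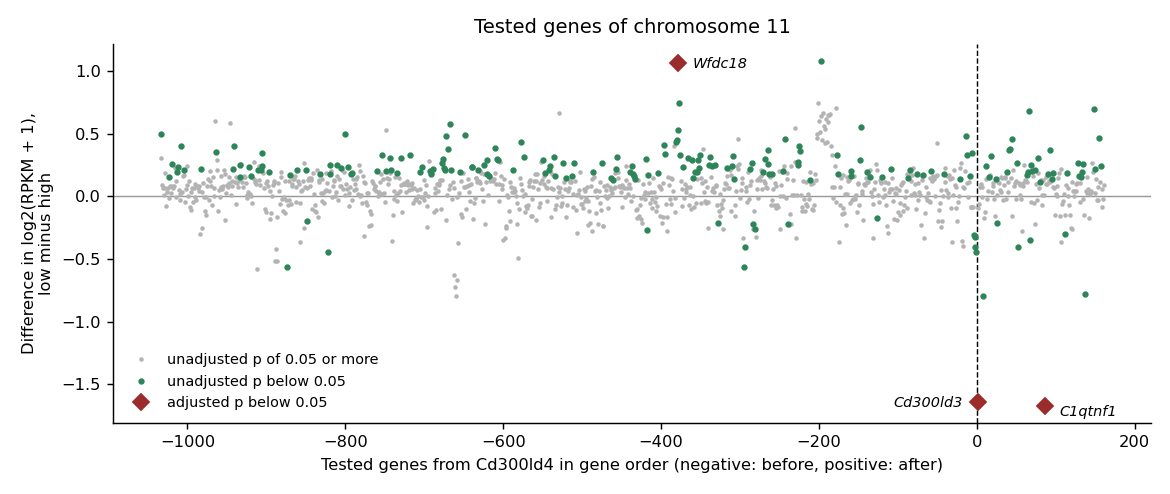
Difference in log2(RPKM + 1), low minus high, of the 1195 tested genes of chromosome 11 against their place in gene order, counted in tested genes from Cd300ld4 (dashed line). Diamonds mark the 3 genes with an adjusted p below 0.05, and points with an unadjusted p below 0.05 lie mostly above 0 along the whole chromosome.

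Within the CD300 family, 6 of the 13 listed genes were expressed highly enough to be tested, and all 6 had lower values in low tumours, with 1 (Cd300ld3) passing the test. The median of their differences was -0.36, against -0.01 over all tested genes, of which 7328 of 13609 had negative differences. Cd300ld3 is one of these 6, and Cd300ld and Cd300lf share 3.67% of the 36-base windows of Cd300ld4, so not all of them are measured apart from it. Cd300ld3 also reached the mean of 1 RPKM needed for the test only through the high class. Its own part in the counts and the median was thus fixed by the filter and the classes. No family member was chosen without knowledge of earlier results.

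Cd300c2, which stands directly before Cd300ld4, ranged from 2.86 to 7.12 RPKM in low tumours (median 4.24) and from 4.11 to 7.83 RPKM in high tumours (median 6.35). Its difference was -0.44 ± 0.10 (limma adjusted p = 0.0951), and 12 of 13 low tumours lay below the high median. The exception was the tumour of animal 4142, the highest low one at 7.12 RPKM. Without that tumour Cd300c2 passed (difference -0.49, adjusted p = 0.026), as it did without animal 4164 (-0.47, adjusted p = 0.0473).

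Cd300a, an inhibitory receptor, had a median of 1.32 RPKM in low and 2.21 RPKM in high tumours (difference -0.40 ± 0.10, adjusted p = 0.217). Cd300ld, an activating one, had medians of 1.17 and 1.63 RPKM (-0.32 ± 0.12, adjusted p = 0.52). Cd300lg, which is known from endothelial cells, had 3.04 and 3.26 RPKM (-0.29 ± 0.20, adjusted p = 0.675). Cd300lf, another inhibitory receptor, had 3.25 and 3.68 RPKM (-0.06 ± 0.11, adjusted p = 0.876). Cd300c, Cd300e and Cd300lb had a mean below 1 RPKM and were not tested, with low medians of 0.351, 0.224 and 0.666 RPKM and high medians of 0.651, 0.358 and 0.802 RPKM. The nearly empty range of Cd300ld4 in low tumours was also that of its copies, which are not measured apart from it, so this is no result about them. Each of the more distant members overlapped between the classes.

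Macrophage genes were also lower in low tumours, though none passed the test. All 18 of the 18 listed macrophage genes were tested and all 18 had negative differences, 12 of them with an unadjusted p below 0.05 (0 passed in limma, median -0.36, against -0.01 over all tested genes). Over all tested genes 7328 of 13609 had negative differences, and 8.5% had an unadjusted p below 0.05, 3.84% higher and 4.66% lower in low tumours. Examples are Mpeg1, a pore-forming protein of macrophages, with medians of 22.6 RPKM in low and 29.9 RPKM in high tumours (-0.50 ± 0.12, adjusted p = 0.217), and the complement gene C1qb, with 56.5 and 76.8 RPKM (-0.42 ± 0.11, adjusted p = 0.32). The protease gene Ctss had 82.2 and 103 RPKM (-0.31 ± 0.09, adjusted p = 0.345) and the lysozyme gene Lyz2 had 172 and 286 RPKM (-0.52 ± 0.19, adjusted p = 0.52). Adgre1, the F4/80 antigen, had 6.25 and 8.94 RPKM (-0.57 ± 0.18, adjusted p = 0.438).

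Summed over the list, these genes reached 479 to 1197 RPKM in low tumours (median 684) and 583 to 1146 RPKM in high tumours (median 896), and none of the examples was at 0 in any tumour. In bulk tumours, fewer macrophages and less RNA per macrophage cannot be told apart. A macrophage level was computed as the mean of the 18 genes after each was set to mean 0 and SD 1 over the tumours. Its median was -0.51 in low and 0.25 in high tumours. The tumour of animal 4142, with Cd300ld4 listed at 0, stood apart from its class with a level of 0.98, the second highest of all 30. Its Cd300ld3 value was 0.334 RPKM and its summed macrophage genes 1197 RPKM, the highest of the series. The part of macrophage content in low Cd300ld4 was not tested.

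Within the high class, tumours with a higher macrophage level had more Cd300ld4. Over the 17 high tumours Pearson's r was 0.79 and Spearman's rho 0.77, given as a description because Cd300ld4 also made the class. Without the tumours of animals 4036 and 4164, the farthest from the median macrophage level, r was 0.74. Within the depth classes r was 0.64 over 11 shallow and 0.93 over 6 deep libraries. The low tumours had macrophage levels from -1.36 to 0.98 (median -0.51), against -0.60 to 1.54 (median 0.25) in the high class. The upper end of the low range was the tumour of animal 4142 alone, and the next low tumour was that of animal 3871 at 0.32. Low tumours had Cd300ld4 at or below 0.304 RPKM, as low values define that class.

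**Figure D3:**
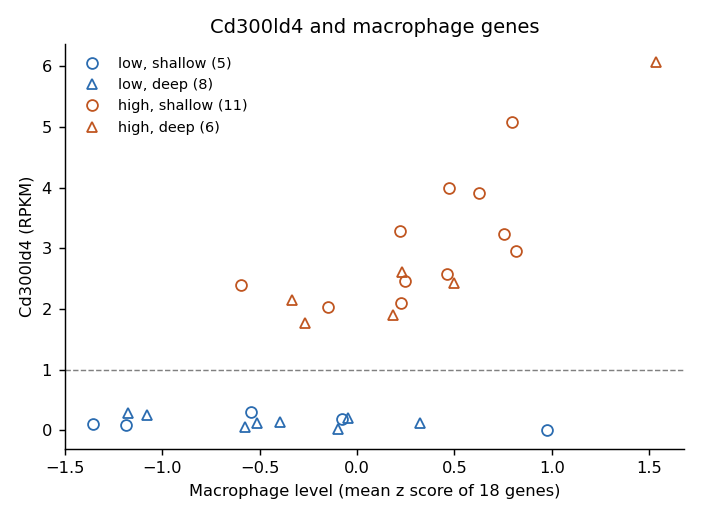
Cd300ld4 in RPKM against the macrophage level (mean z score of 18 macrophage genes) of each tumour, by class and depth, with the dashed line at the threshold of 1 RPKM. Among the 17 high tumours those with a higher macrophage level tend to have more Cd300ld4. The 13 low tumours, below the threshold by definition, spread over levels from -1.36 to 0.98, with a median of -0.51 against 0.25 in high tumours.

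With the macrophage level as a covariate, the differences of the other family members were nearer to 0 or changed sign. Cd300c2 went from -0.44 to -0.23, Cd300ld from -0.32 to 0.018, Cd300lf from -0.06 to 0.027 and Cd300lg from -0.29 to 0.28. Cd300ld3 had a difference of -1.36. It is close to the same measurement as Cd300ld4 and entered the test only through the high class, so its value is a description. Of 16 adaptors and signalling partners of such receptors, including the adaptor Tyrobp (43.9 and 54.4 RPKM, -0.31 ± 0.11, adjusted p = 0.52), 12 had negative differences, 0 passed in limma and 4 had an unadjusted p below 0.05 (3 lower and 1 higher in low tumours), with a median of -0.15. Among all tested genes, 7328 of 13609 had negative differences, and 3.84% were higher and 4.66% lower in low tumours at an unadjusted p below 0.05.

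Lists of other cell types gave 0 called genes in limma as well. The shares to set beside the counts below are those of all 13609 tested genes. Of these, 3.84% were higher and 4.66% lower in low tumours at an unadjusted p below 0.05. Of 11 tested neutrophil and monocyte genes, 3 had an unadjusted p below 0.05, all higher in low tumours (median 0.11), among them S100a8 with medians of 51.8 and 33.5 RPKM. The list was split in direction, since 4 of the 11 had negative differences, and its differences ran from -0.40 to 1.13. T and NK cell genes had a median of 0.40 with 2 of 5 higher at that p, and of 4 dendritic cell genes 2 were lower (median -0.26). Stroma (-0.29), endothelial (-0.25), adipocyte (-0.43) and proliferation genes (-0.12) had medians below 0, with 0, 1, 0 and 2 genes at an unadjusted p below 0.05. B cell (0.37, 5 genes) and mast cell genes (-0.42, 5 genes) had none at that p.

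Several of these lists had other values within a depth class, a difference that was not tested. In shallow libraries T and NK cell genes had a median of 0.68, with 4 of 5 higher in low tumours at an unadjusted p below 0.05, and B cell genes one of 0.98, with 3 of 5 higher. Of all 13609 tested genes, 384 were higher and 852 lower there at that p (median -0.03). In deep libraries the T and NK cell and B cell medians were 0.13 and 0.10, with 0 genes at that p in either list and 0 called in limma. All tested genes gave 537 higher and 253 lower there (median 0.0065). Stroma genes had a median of -0.53 in shallow libraries, with 4 of 8 lower at that p, and of -0.22 in deep libraries, with 0.

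Milk genes had a median of 1.17 and skeletal muscle genes one of -0.66, with none at an unadjusted p below 0.05 over all 30 tumours. Both turned over with depth. The milk median was 3.40 in shallow libraries, where 5 of 7 genes were higher in low tumours at that p, against 384 of all 13609 tested genes. In deep libraries the milk median was -0.27. The muscle median was -0.95 in shallow and 0.91 in deep libraries. Luminal (-0.0044) and basal epithelial genes (-0.01) had medians near that of all genes over all 30 tumours. Of 7 luminal genes, 4 had negative differences and 1 was higher in low tumours at an unadjusted p below 0.05, with differences from -0.13 to 0.22. Of 7 basal genes, 0 had such a p. The part of these tissue differences in the results on chromosome 11 was not tested, apart from macrophage genes.

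Looking along chromosome 11 as a whole, small differences in one direction were common. Of its 1195 tested genes, 208 (17.4%) had an unadjusted p below 0.05, of which 185 (15.5%) were higher and 23 (1.92%) lower in low tumours. On other chromosomes these shares were 2.72% and 4.92%. Of the chromosome 11 differences, 70.4% were positive, with a median of 0.08, against 43.8% and -0.02 on all other chromosomes together. Skews in one direction also occurred elsewhere: 65.8% were positive on chromosome 17 (median 0.04) and 25.8% on chromosome 7 (median -0.08). Apart from chromosome 11 the largest share at that p was on chromosome 7 (12%), where 126 of 133 genes were lower in low tumours, followed by chromosome 3 (9.51%).

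This pattern was not seen in the shallow libraries. There, 49 chromosome 11 genes were higher and 91 lower in low tumours at an unadjusted p below 0.05, and 42.8% of differences were positive. In the deep libraries 195 were higher and 11 lower, and 84.5% were positive. Chromosome 17 there had 59 genes higher and 4 lower, with 74.2% positive, and chromosome 3 had 68.7% positive. The difference between the depth classes was not tested. Deep libraries set against shallow ones, in a fit without a term for class, also had positive differences for 69.5% of chromosome 11 genes. Depth and class are mixed in that fit, since 8 of the 14 deep libraries were of low tumours. On chromosome 7, 7 genes were higher and 113 lower at that p in shallow libraries (10.8%). In deep libraries 24 were higher and 35 lower (5.33%), near the 4.70% of all chromosomes other than 11.

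**Figure D4:**
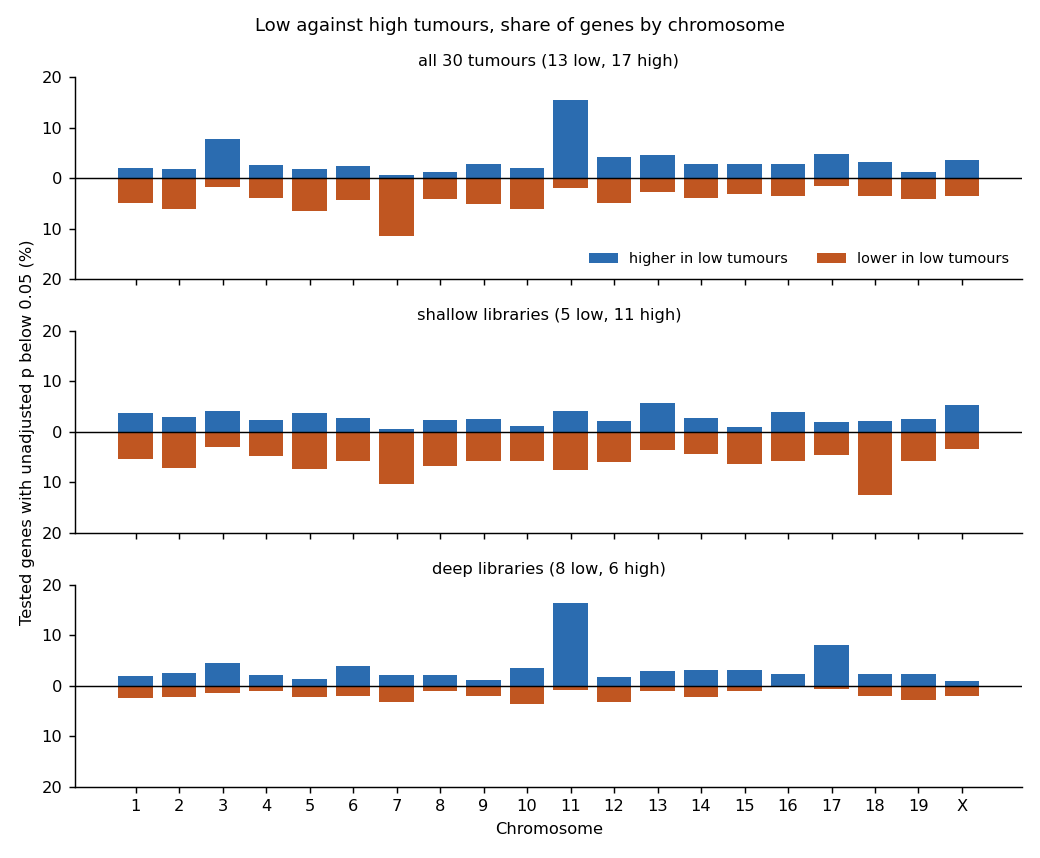
Share of tested genes of each chromosome with an unadjusted p below 0.05, higher (upward bars) or lower (downward bars) in low tumours, for all 30 tumours, the 16 shallow and the 14 deep libraries. The tall upward bar of chromosome 11 (15.5%) recurs in the deep libraries and not in the shallow ones.

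A level was computed per tumour as the median deviation of chromosome 11 genes from their own means, minus that of the genes elsewhere. It ranged from -0.11 to 0.03 in high tumours and from -0.11 to 0.27 in low tumours. Its mean was 0.11 in deep and -0.03 in shallow libraries of low tumours. In high tumours the mean was -0.06 in deep and -0.03 in shallow libraries. The 4 highest tumours were those of animals 4038 (0.27), 3654 (0.25), 4042 (0.18) and 4461 (0.15), all of the low class and all with deep libraries. The next was that of animal 4020 at 0.08. Among 570 pairs of a tumour and another chromosome, 9 pairs in 6 tumours lay at least as far from 0 as the lowest of these 4, with levels between -0.18 and 0.37, and 3 of the 9 were in the tumour of animal 3654.

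The higher level of these 4 tumours ran along the chromosome. In 8 stretches of gene order their levels lay between 0.10 and 0.30, and in 5 of the 8 stretches all 4 were above every other tumour. The stretches are made of the same genes as the level that ranked the tumours. High stretch levels thus follow in part from the choice of these 4 and are a description. Without these tumours, a choice made after their levels were seen, 47 chromosome 11 genes were higher and 36 lower at an unadjusted p below 0.05, and 50.2% of differences were positive. Cd300ld3, C1qtnf1 (-1.77, adjusted p = 0.0126) and Wfdc18 (1.22, adjusted p = 0.0189) still passed in limma, with Pde6g on chromosome 11 and Lepr on chromosome 4 in addition. The smaller skew follows in part from the choice, since the tumours left out were those with the highest level and all were low, so it is a description.

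**Figure D5:**
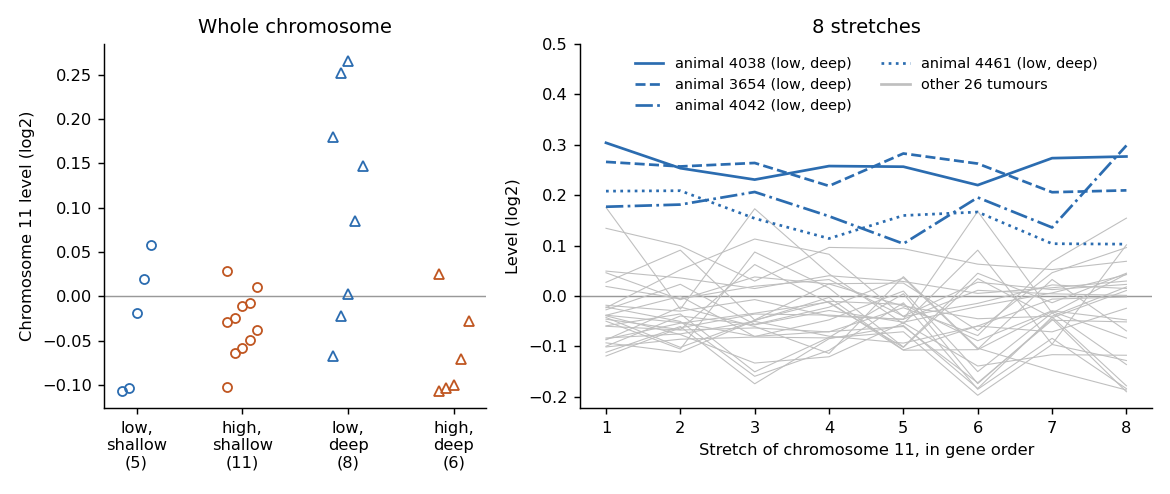
Left, level of chromosome 11 (log2) in each tumour by class and depth. Right, the level in 8 successive stretches of the chromosome, with the 4 highest tumours in blue and the other 26 in grey. The 4 blue tumours, all low and deep, lie between 0.10 and 0.30 along the whole chromosome, and were picked by their level over these same genes.

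Read by distance from Cd300ld4, the share of genes at an unadjusted p below 0.05 was 30.0% within 25 tested genes on either side (15 of 50), of which 6 were lower in low tumours. It was 12% from 26 to 50 genes, 21% from 51 to 100, 14.9% from there to 200, 23% from there to 400 and 15.1% beyond that. After the nearest window the share had no steady fall with distance. Within a depth class the nearest window held 9 of 50 genes at that p (18%) in shallow and as many in deep libraries, against 11.7% and 17.2% of all tested chromosome 11 genes there. Of the 6 lower genes in the nearest window 4 belong to the CD300 family. The one gene called there was Cd300ld3.

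The genes whose log2(RPKM + 1) over the 30 tumours was most like that of Cd300ld4 were Cd300ld3 (Pearson's r 0.97), C1qtnf1 (0.73), Ten1 (-0.72), Arl11 (0.71) and Heatr6 (-0.70). These are descriptions over all tumours, which fall in 2 separate ranges of Cd300ld4. Ten1, a component of a telomere-capping complex, had medians of 24.9 RPKM in low and 16.4 RPKM in high tumours (0.46 ± 0.10, adjusted p = 0.0951), and passed without animal 4378 or 4438. Its difference was 0.26 in shallow and 0.62 in deep libraries, with adjusted p of 0.609 and 0.144. Heatr6, a HEAT repeat protein gene 2 tested genes from Wfdc18, had 13.5 and 11 RPKM (0.33 ± 0.07, adjusted p = 0.069), with 8 low tumours above every high one, and passed without animal 4164, 4438, 4488 or 3871.

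Arl11, a small GTPase of the ARF-like family on chromosome 14, is the one of the 5 that lies on another chromosome. It ranged from 0.939 to 1.87 RPKM in low tumours (median 1.23) and from 1.35 to 2.65 RPKM in high tumours (median 1.81), with a difference of -0.31 ± 0.08 (limma adjusted p = 0.217). Snhg20, a noncoding host gene of small nucleolar RNA on chromosome 11, was named after its values were seen, with medians of 28.6 RPKM in low and 17.4 RPKM in high tumours (0.68 ± 0.14, adjusted p = 0.069). It passed without animal 4378, 4438 or 4488.

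Cd300ld4 was also used as a continuous value in place of classes. This fit draws on the same Cd300ld4 values, with the same empty range between them, and is not separate support for any gene. In it 10 genes on chromosome 11 passed in limma, among them C1qtnf1, Cd300a, Cd300ld3, Fads6, Heatr6, Mrpl38, Snhg20, Ten1 and Wfdc18. On other chromosomes 5 passed, among them Arl11, Lgmn, Pld4 and Stab1, of which Stab1 encodes a scavenger receptor of macrophages and endothelial cells.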

How the data were processed

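The deposited table holds RPKM values made by the authors, with 27902 RefSeq transcripts in rows and the 30 animals in columns, all of which were used. No source names the unit, which was inferred from the values. The submitters' processing notes list CASAVA 1.7.0. Aligner settings, genome build and read length were not given in the sources used here. Libraries were poly-A selected, per the labels' protocols.

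A RefSeq gene table (assembly GRCm38.p6, used for names and gene order only) named 26490 transcripts, and GENCODE vM21 named 154. Left out were 1258 transcripts without a name or listed as numbered copies of another row (1.94% of summed RPKM) and 697 small RNA transcripts. For 3303 genes with several transcripts, the one with the highest mean was kept. Of the resulting 20844 genes, 13609 had a mean of 1 RPKM or more and entered the tests. Cd300ld4 and Cd300ld5 did not.

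Values were compared as log2(RPKM + 1), which understates differences of low genes. The test was that of limma 3.58.1 in R 4.3.3, two-sided, with a mean-dependent empirical Bayes prior. Its p-values were adjusted by Benjamini-Hochberg over all tested genes, with a threshold of 0.05. With 1 library per animal, an error holds both the spread between animals and technical variation. Other steps used Python 3.11.15 with scipy 1.17.1 and pandas 2.3.3. The fit was tested on simulated data for 13609 genes with independent noise, with 3.80% false calls.

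Depth was estimated from the spacing of low values of transcripts of 150 to 2500 bases. Of these values, 72.6 to 80.7% lay within 0.12 of a whole read, against 24% by chance. That share did not allow counts to be rebuilt, so count models were not used, and read numbers given for a gene are approximate.

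The members, gene lists and rule for named genes were chosen with earlier results of these data known. The rule took Cd300ld4, its family, the 10 tested genes on each side, called genes, the 5 genes most like Cd300ld4 and, for each list, called members and the member with the highest mean, of which the text gives a selection. Mpeg1, C1qb, Ctss, Csf1r, Adgre1, Snhg20 and genes called under another setting only were named after their values were seen. The depth classes, the treatment of numbered copies, the counts at an unadjusted p, the chromosome 11 level and the fits without Cd300ld3 or without 4 tumours were also chosen after the values were seen. Some genes that passed under another setting are not reported here.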

Additional observations from a re-analysis of the deposited data

How the results depend on the processing

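No paired analysis was possible because all tumours belong to 1 labelled group and their replicate numbers follow accession order. Of the values of single genes under an alternative, 931 kept their direction and side of the threshold, 24 newly passed, 23 were lost and 5 reversed. Those 5 were Cd300lf in deep libraries alone (0.10) and, with the macrophage covariate, Cd300ld (0.018), Cd300lf (0.027), Cd300lg (0.28) and Csf1r (0.17).

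The 3 called genes on chromosome 11 became 1 in deep libraries alone, 1 with classes divided at 2 RPKM, 10 with Cd300ld4 as a continuous value and 1 without Cd300ld3 among the tested genes. The 1 called gene within 25 genes became 0 with a mean of at least 5 RPKM, which removes Cd300ld3 from the test, 3 as a continuous value and 0 without Cd300ld3. The 0 on other chromosomes became 5 as a continuous value and 1 without the 4 tumours with the highest chromosome 11 level. The cause was not tested where none is given.

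Of chromosome 11 genes at an unadjusted p below 0.05, the 185 higher in low tumours became 106 with the insert size covariate, 92 with the macrophage covariate, 49 in shallow libraries and 47 without the 4 tumours. The 23 lower became 11 in deep libraries, 39 at 2 RPKM, 15 with the macrophage covariate, 14 with a mean of at least 5 RPKM, 91 in shallow libraries, 47 as a continuous value and 36 without the 4 tumours. Positive differences went from 70.4% to 42.8% in shallow libraries. Genes elsewhere at that p went from 7.65% to 4.70% in deep libraries and 4.97% with insert size.

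Leaving out 1 tumour at a time gave 2 to 7 called genes on chromosome 11, 1 to 2 within 25 genes, 0 to 1 elsewhere (Pld4, without animal 4142), 133 to 250 higher, 18 to 28 lower, 65.8 to 72.7% positive and 5.29 to 9.36% elsewhere. The count on chromosome 11 rose to 5 without animal 4164 or 4030, 6 without 4378, 4488 or 3871 and 7 without 4438. It rose to 2 within 25 genes without animal 4038, 4142, 4164, 4357, 4438, 4488, 4516 or 4030.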
